A study of Mus musculus with 30 samples.

Results

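The collagen genes of mouse satellite cells were followed through muscle injury and regeneration. They are the 44 genes, of 55450 rows in the count tables of the time course and of regeneration, whose symbol is Col, a type number, the letter a and a chain number, and all 44 are also in the table of old cells. By the type of the protein, 11 are fibrillar (types I, II, III, V, XI, XXIV and XXVII), 8 belong to basement membranes (the type IV chains, Col15a1 and Col18a1) and 25 are of other types.

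Satellite cells are stem cells of muscle. They came from hind limbs of C57BL/6 mice and were profiled by bulk RNA-seq in 30 libraries, 2 for each of 15 groups. In the groups labelled as injured, barium chloride had been injected, which destroys muscle fibres, and the labels describe perfusion with paraformaldehyde, a fixative, so that RNA was fixed before the cells were isolated. The groups of the time course are uninjured cells and cells 0.5, 1, 2, 4, 8, 16, 32 and 60 h after injury, and those of regeneration are cells 7, 14 and 28 d after injury. There are 3 groups of old cells. These are oASC (2.5 days after injury), oFISC (whose labels give both an injury and a fresh isolation, so that its state is uncertain) and oQSC (fixed in place, without injury). All others are referred to as younger cells, although no ages are given. Whether both libraries of a group derive from different mice is not stated, so every error and p-value covers the spread between these samples, which may be technical.

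Collagens are secreted proteins in which 3 chains wind into a helix. Fibrillar collagens (types I, III and V) build the fibrils of the connective tissue between muscle fibres, type IV collagen forms the network of the basement membrane that covers each satellite cell, and type VI collagen links this membrane to its surroundings. Type V collagen has a further role in this cell: made by the satellite cell itself, it binds the calcitonin receptor (Calcr) on its surface and keeps the cell quiescent, and Notch signalling through the DNA-binding factor Rbpj raises transcription of Col5a1 and Col5a3 in mouse satellite cells. The chains of one type come from different genes, so the mRNA of each chain can change on its own.

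The promoters of Col5a1 and Col5a3 are shown because these chains are targets of Notch, and the start region of Col4a1 and Col4a2 because the pair starts from one short stretch of DNA and is followed as a pair. Each promoter runs from 250 bases before to 50 bases after the annotated start (RefSeq, GRCm38.p6), is written 5′ to 3′ on the strand of the gene, and has its CCAAT and GGGCGG matches on either strand in capitals.
Col5a1, chr2:27886175-27886474, plus strand: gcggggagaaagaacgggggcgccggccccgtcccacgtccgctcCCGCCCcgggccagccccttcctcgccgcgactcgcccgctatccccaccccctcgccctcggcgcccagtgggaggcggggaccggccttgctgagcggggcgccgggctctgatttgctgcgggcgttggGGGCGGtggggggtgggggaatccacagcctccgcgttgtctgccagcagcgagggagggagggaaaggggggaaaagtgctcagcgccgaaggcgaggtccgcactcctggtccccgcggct
Col5a3, chr9:20815018-20815317, minus strand: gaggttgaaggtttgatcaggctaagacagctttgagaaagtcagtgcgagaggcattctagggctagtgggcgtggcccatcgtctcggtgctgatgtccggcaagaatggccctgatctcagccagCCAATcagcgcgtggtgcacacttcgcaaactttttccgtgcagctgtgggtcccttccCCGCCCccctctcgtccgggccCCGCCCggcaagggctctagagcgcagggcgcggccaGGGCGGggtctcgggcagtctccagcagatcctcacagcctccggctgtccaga
Col4a1 and Col4a2, chr8:11312755-11312876, plus strand: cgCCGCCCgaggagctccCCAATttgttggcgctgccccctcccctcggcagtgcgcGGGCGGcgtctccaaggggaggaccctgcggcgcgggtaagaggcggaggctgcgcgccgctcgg

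The annotated starts of Col4a1 (minus strand, position 11312826 of chromosome 8) and Col4a2 (plus strand, 11312805) lie 21 bases apart, and the transcripts run away from each other. Their promoter windows share 78 bases. The 122 bases printed hold 1 CCAAT and 2 GGGCGG matches. Over 38 promoter windows of 35 collagen genes, the Rbpj motif GTGGGAA was found on either strand in 2, those of Col10a1 and Col4a5, against 6.38% of all 32851 promoter windows of this length. The windows of Col5a1 and Col5a3 hold no such letters. Only these windows and these exact letters were searched, so sites elsewhere or with other letters were not examined. CCAAT was in 13 of the 38 (37.4% of all windows), GGGCGG in 23 (35.7%) and TATAAA in 5 (13.6%).

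Total counts ran from 9.18 to 57.4 M per library, and 1 count corresponded to 0.0169 to 0.0919 CPM. Levels are CPM (counts scaled to library size) with TMM factors, over all 30 libraries for the younger cells and over their own 6 for the old cells. Libraries of one group stood apart at 0.5 to 4 h, and in part at 32 h and 14 d. Pax7, the factor that defines satellite cells, reached in CPM 781 and 134 in the 0.5 h libraries, 565 and 147 after 1 h, 117 and 758 after 2 h and 993 and 69.6 after 4 h, whereas Myod1, the factor of activated myoblasts, had 119 and 1510, 162 and 1790, 1880 and 82.7, and 88.3 and 2170 CPM in the same libraries. One library of each of these 4 groups was thus high in Pax7 and the other in Myod1. At 32 h the libraries had 51.7 and 293 CPM of Pax7 and 1320 and 415 CPM of Myod1, and at 14 d 27.6 and 222 CPM of Myod1. Of collagens with a mean over 5 CPM, 9 of 19 differed more than 2-fold between the 32 h libraries and 12 of 25 between those of 14 d. At 0.5, 1, 2 and 4 h these were 8 of 19, 5 of 18, 10 of 19 and 8 of 18. In Pax7 and Myod1 the oQSC libraries went against their label. On the scale of all 30 libraries they held 1300 ± 330 CPM of Myod1 and 78.6 ± 8.34 CPM of Pax7, against 46.1 ± 6.64 and 1650 ± 135 CPM in uninjured younger cells (SD, n = 2 each). Calcr was not low in oQSC, with 314 ± 4.59 CPM against 163 ± 23.5 CPM in uninjured cells on the same scale. Ribosomal RNA took 49.7% and 37.3% of counts in the uninjured libraries, 28.3% and 31.2% at 60 h and 4.22% to 20.9% in the other younger libraries, and satellite repeats took 61.3% and 26.6% in oFISC, 21.1% and 18.8% in oQSC, 0.0191% and 0.0148% in oASC and 15% in one 28 d library. The counts of collagens called were also computed with both kinds of gene model left out.

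Collagen mRNA was a small part of each library, from 0.0385% of counts in an oQSC library to 0.569% at 7 d. Summed over the 44 genes it was 2400 and 1840 CPM in uninjured cells, 2520 and 1760 at 0.5 h, 1970 and 1520 at 1 h, 1280 and 2120 at 2 h, 1930 and 1460 at 4 h, 1510 and 1520 at 8 h, 824 and 762 at 16 h, 1000 and 1570 at 32 h, 853 and 976 at 60 h, 4000 and 3660 at 7 d, 4150 and 3480 at 14 d, and 1430 and 1500 at 28 d. Both libraries of 8, 16, 32 and 60 h and of 28 d lay below both uninjured libraries, and those of 7 and 14 d above them. Old cells had 1110 and 1090 CPM in oASC, 1000 and 745 CPM in oFISC and 495 and 616 CPM in oQSC libraries.

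**Figure D1:**
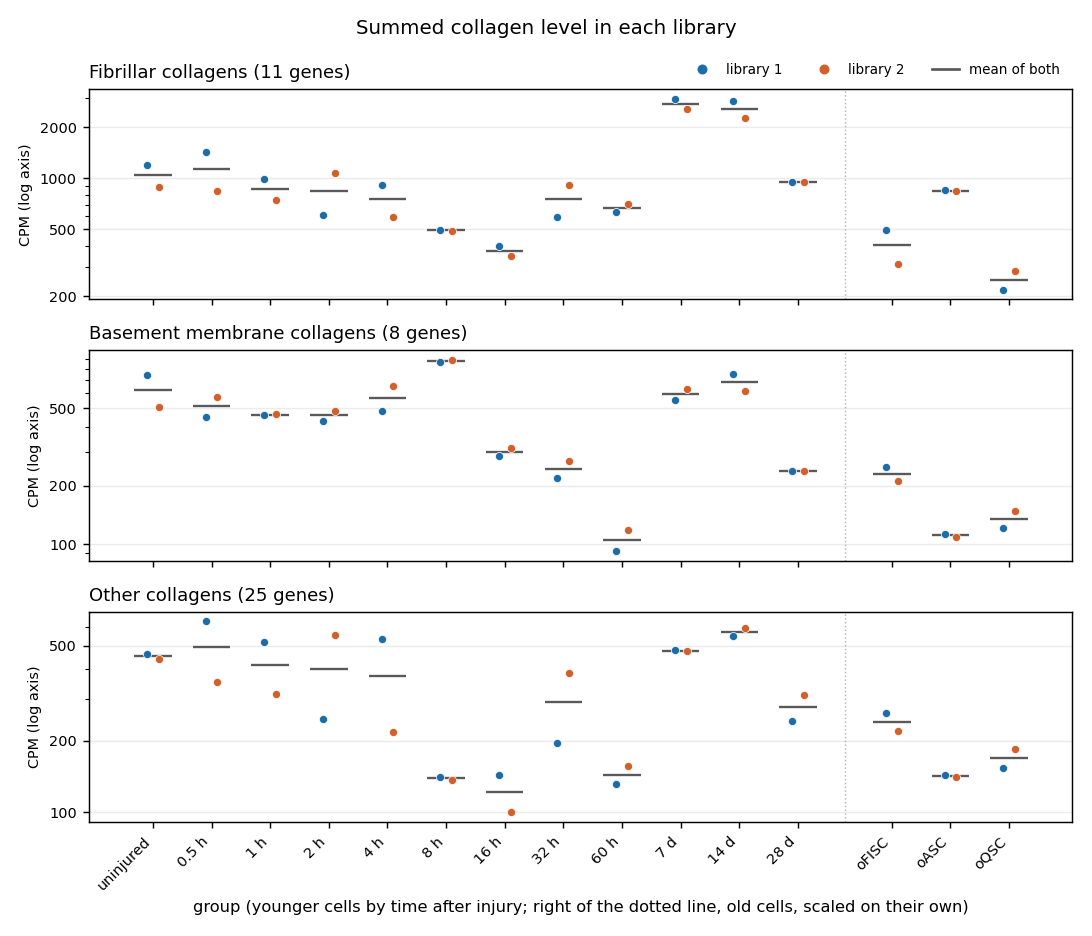
Summed level (CPM, log axis) of the 11 fibrillar, 8 basement membrane and 25 other collagens in each library, by group. Points are libraries and bars their mean. Basement membrane collagens were highest at 8 h (870 and 888 CPM) and lowest among the younger libraries at 60 h (92.3 and 119 CPM), and fibrillar collagens were highest at 7 d (2960 and 2560 CPM).

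Per kilobase of transcript, with younger and old libraries each on their own scale, Col3a1 was the most abundant collagen over all 30 libraries with a mean of 84.3 CPM per kb, followed by Col4a1 with 37.7, Col6a1 with 31.3, Col1a2 with 23.4 and Col5a2 with 20.8 CPM per kb. With the length of all annotated exons of each gene, Col1a2 ranked 7 rather than 4. The order also differed between groups. Col3a1 made up 31.1% of collagen CPM per kb in uninjured cells, where it led. At 8 h Col4a1 led with 40.4%, at 60 h Col3a1 led with 31.3% ahead of Col1a2 with 20.2%, and at 7 d Col3a1 had 31.4% and Col1a2 24.6%. In oASC libraries Col5a2 stood in second place with 19.6%. At the low end, Col28a1, Col9a1, Col9a2, Col6a4 and Col6a5 averaged at most 0.209 CPM, and each lacked a count in 15 or more libraries.

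By edgeR's test, few collagens changed in the first hours after injury and more did later. Of the 41 collagens that passed the filter on low counts in the time course, 3 rose and none fell at 0.5 h, where 6.88% of all genes tested rose and 3.42% fell (10.3% in either direction). At 1 h, 1 rose and 1 fell (6.57% and 3.64% of all genes, 10.2% in either direction). At 2 h, 2 rose and none fell (6.32% and 2.99%, 9.31% in either direction), and at 4 h, 3 rose and none fell (7.18% and 3.8%, 11% in either direction). At 8 h, 4 rose and 9 fell (16.1% and 14%, 30.1% in either direction). The numbers were 3 and 11 at 16 h (14.2% and 8.5%, 22.7% in either direction), 5 and 4 at 32 h (14.1% and 6.44%, 20.5% in either direction) and 4 and 14 at 60 h (15.5% and 12.8%, 28.3% in either direction). By this test calls were near or below the background up to 4 h. DESeq2 called 8, 10, 9 and 10 collagens at 0.5, 1, 2 and 4 h, and 4771, 4696, 4588 and 5116 genes in all. From 8 h on, fewer collagens rose than the background except at 32 h, where the share was near it, and more fell, most clearly at 16 and 60 h. Over the 8 times together 17 of 41 changed, against 24.7% of all genes tested. The calls use edgeR's quasi-likelihood test with Benjamini-Hochberg adjustment over all 22479 genes tested, at an adjusted p under 0.05; Col6a4, Col9a1 and Col9a2 were too low to test.

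The first 4 times rest on few libraries. With each library of the groups compared left out in turn, the counts ran from 0 to 3 at 0.5 h, 0 to 1 at 1 h, 0 to 1 at 2 h and 0 to 3 at 4 h, and with only the groups compared in the fit they were 0, 1, 0 and 0. At 8 h the count was 7 without uninjured library 1, 10 without uninjured library 2, and 5 and 4 without 8 h library 1 and 2. At 16 h it was 9 without library 2 of that time and 10 without any other library. It was 2 at 32 h without uninjured library 1 and 4 without either 32 h library, and 12 to 15 at 60 h. Without the 8 libraries of 0.5 to 4 h, 16 collagens were called at 32 h and 28 over all times.

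Basement membrane collagens were mostly lower late after injury. At 60 h, 5 of 8 basement membrane collagens fell and none rose, with a median log2 fold change of −2.63 (−2.23 with a gene that had no count set at its bound), against 0 over all genes tested. Of 11 fibrillar collagens, 1 rose and 2 fell at 60 h, with a median of −0.50. Over all genes tested, 15.5% rose and 12.8% fell at 60 h, so the fibrillar counts were near the background. Of 22 other collagens tested, 3 rose and 7 fell, with a median of −1.61 (−1.41 with genes without a count at their bound). At 8 and 16 h the median was −1.86 and −2.41 for basement membrane collagens and 1.09 and 0.15 for fibrillar collagens, where the median over all genes was 0 and 0.11. These medians weigh each gene alike, and at 8 h the summed levels went the other way. Basement membrane collagens summed to 870 to 888 CPM at 8 h, against 509 to 740 CPM in uninjured cells. Fibrillar collagens summed to 491 to 494 CPM at 8 h, against 894 to 1200 CPM. At 16 h both sums were lower, with 284 to 314 and 348 to 396 CPM. In these bulk libraries, fewer cells of a type and less RNA per cell cannot be told apart.

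**Figure D2:**
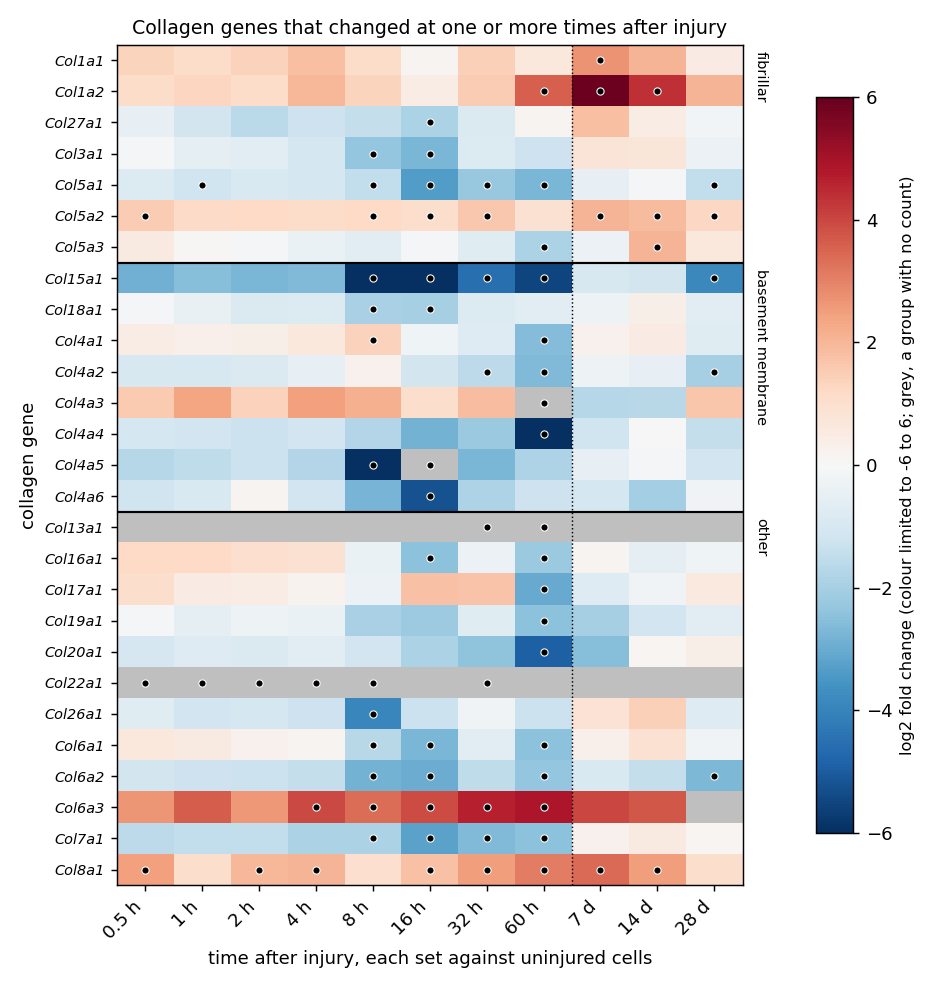
Log2 fold change against uninjured cells (colour, limited to −6 to 6) for the 27 collagens called at one or more times after injury, 7 fibrillar, 8 basement membrane and 12 other. Black dots mark an adjusted p under 0.05 and grey marks a comparison in which one group had no count. Col5a1 has dots at 1, 8, 16, 32 and 60 h and at 28 d, all of them lower, and Col5a2 at 0.5, 8, 16 and 32 h and at 7, 14 and 28 d, all of them higher.

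The type V chains parted from each other after injury. Col5a1 (chr2:27886425-28039514, plus strand) had 218 and 149 CPM in uninjured cells, 109 and 101 at 0.5 h, 86.6 and 75.3 at 1 h, 78.6 and 118 at 2 h, 108 and 71.9 at 4 h, 69.7 and 65.1 at 8 h, 18.5 and 17.5 at 16 h, 28.4 and 47.7 at 32 h and 24.6 and 31.4 at 60 h. Both libraries of every time point lay below both uninjured libraries, and those of 16 h were the lowest of the time course. The log2 fold change was −0.84 ± 0.34 at 0.5 h (adjusted p = 0.129), −1.47 ± 0.34 at 8 h (adjusted p = 0.0103), −3.34 ± 0.37 at 16 h (adjusted p = 0.000594), −2.28 ± 0.35 at 32 h (adjusted p = 0.0015) and −2.72 ± 0.36 at 60 h (adjusted p = 0.000355, edgeR quasi-likelihood test, ± standard error). The falls at 16, 32 and 60 h kept an adjusted p under 0.05 in 4 of 4 fits that left out 1 library, the fall at 8 h in 1 of 4 and the fall at 1 h (−1.20 ± 0.34, adjusted p = 0.0435) in none. Exons of Col5a1 overlap 2810430I11Rik and Gm13372 on the other strand, and the strand of counting is not given.

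Col5a2 (chr1:45374321-45503282, minus strand) moved the other way. Its level was 58.3 and 48.9 CPM in uninjured cells, 130 and 183 at 0.5 h, 97.9 and 144 at 1 h, 119 and 122 at 2 h, 97.2 and 133 at 4 h, 110 and 142 at 8 h, 133 and 89.7 at 16 h, 181 and 151 at 32 h and 94.9 and 111 at 60 h. Every injured library was above both uninjured ones. The rise was 1.51 ± 0.35 at 0.5 h (adjusted p = 0.0201), 1.20 ± 0.35 at 8 h (adjusted p = 0.0234), 1.07 ± 0.35 at 16 h (adjusted p = 0.0443) and 1.63 ± 0.35 at 32 h (adjusted p = 0.00802) on the log2 scale, while at 60 h the value was 0.93 ± 0.35 (adjusted p = 0.0618). These calls were less firm than those of Col5a1: 1 of 4, 0 of 4, 0 of 4 and 2 of 4 held with a library left out, and the call at 16 h was lost with RLE size factors (adjusted p = 0.0983) and without ribosomal RNA and satellite repeat models (adjusted p = 0.0576).

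Col5a3 (chr9:20770050-20815067, minus strand) had 96.7 and 99.2 CPM in uninjured cells, 212 and 84.9 at 0.5 h, 130 and 77.7 at 1 h, 51.5 and 133 at 2 h, 95.4 and 56.1 at 4 h, 60.9 and 70.2 at 8 h, 82 and 105 at 16 h, 50.7 and 67 at 32 h and 24 and 29.2 at 60 h. The libraries of 0.5 to 4 h lay on both sides of the uninjured ones, and 60 h was the only time at which the test was passed, with −1.89 ± 0.50 (adjusted p = 0.0145). That call was lost when any of the 4 libraries was left out (adjusted p from 0.0617 to 0.117).

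During regeneration Col5a1 had 144 and 135 CPM at 7 d, 202 and 185 at 14 d and 48 and 84.1 at 28 d. Against uninjured cells its log2 fold change was −0.49 ± 0.37 at 7 d (adjusted p = 0.405), −0.09 ± 0.36 at 14 d (adjusted p = 0.947) and −1.46 ± 0.37 at 28 d (adjusted p = 0.0302), the last held in 1 of 4 fits that left out a library. Col5a2 had 261 and 208 CPM at 7 d, 240 and 205 at 14 d and 125 and 124 at 28 d, higher than in uninjured cells at each of these times, by 2.03 ± 0.33 (adjusted p = 0.00128), 1.89 ± 0.33 (adjusted p = 0.00246) and 1.23 ± 0.33 (adjusted p = 0.0366) on the log2 scale. The calls at 7 and 14 d were kept in 4 of 4 fits without a library and the call at 28 d in none (adjusted p from 0.0966 to 0.243). Col5a3 peaked at 14 d. It had 91.4 and 71.8 CPM at 7 d, 419 and 476 at 14 d and 177 and 120 at 28 d, and both 14 d libraries were above every other younger library. The rise at 14 d over uninjured cells was 2.03 ± 0.49 (adjusted p = 0.0135) and held in 2 of 4 fits that left out a library. Between 14 and 7 d Col5a3 differed by 2.41 ± 0.34 with an unadjusted p of 0.00016, which did not pass adjustment (adjusted p = 0.12).

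**Figure D3:**
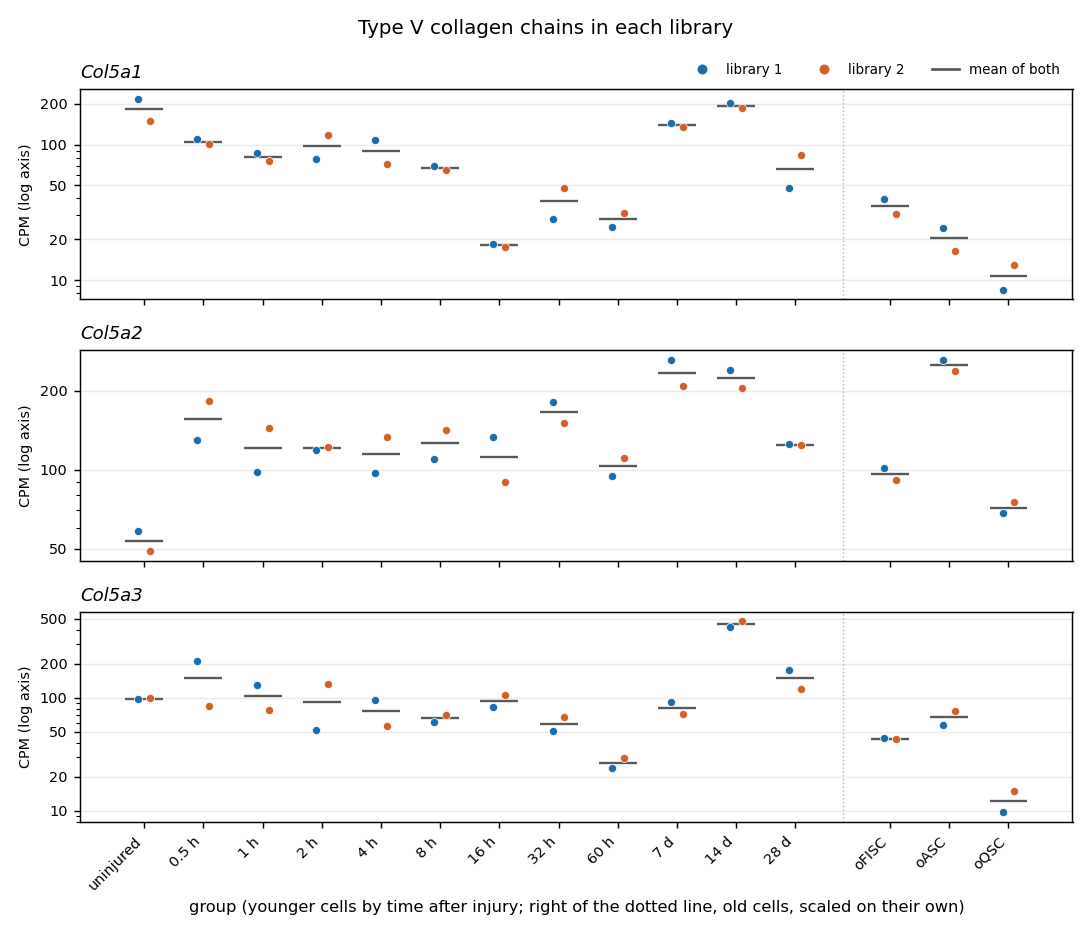
Level of Col5a1, Col5a2 and Col5a3 (CPM, log axis) in each library, by group. Points are libraries and bars their mean. Col5a1 was at 18.5 and 17.5 CPM at 16 h, below 218 and 149 CPM in uninjured cells, while Col5a2 was at 133 and 89.7 CPM at 16 h, above 58.3 and 48.9 CPM.

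The balance of the chains shifted with them. Per kilobase of transcript, Col5a1 stood at 0.437 to 0.664 of Col5a2 at 0.5 h, 0.362 to 0.498 at 8 h, 0.11 to 0.154 at 16 h, 0.204 to 0.223 at 60 h and 0.663 to 0.711 at 14 d, against 2.4 to 2.94 in uninjured cells. No injured library reached the uninjured ratio. The ratio of Col5a3 to Col5a1 was 6.08 to 8.25 at 16 h, against 0.611 to 0.916 in uninjured cells. A ratio within a library shows unequal change, not which chain changed, and no test was made of it.

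Calcr, the receptor for type V collagen, had 147 and 180 CPM in uninjured cells, 110 and 118 at 8 h, 29.5 and 14.9 at 16 h, 25.2 and 32.6 at 32 h and 13.8 and 16.4 at 60 h. It fell by 2.87 ± 0.43 at 16 h (adjusted p = 0.00158) and by 3.44 ± 0.44 at 60 h (adjusted p = 0.000323) on the log2 scale, but not past the threshold at 8 h (−0.55 ± 0.40, adjusted p = 0.306). Of the ligand chains, Col5a1 was low together with the receptor from 16 to 60 h, whereas Col5a2 was above uninjured cells in every one of these libraries and Col5a3 was called lower at 60 h only. At 7, 14 and 28 d Calcr had 89.4 and 73.1, 117 and 43.3, and 48.9 and 97 CPM, and no difference from uninjured cells passed the test. Notch1, a Notch receptor, was already lower at 0.5 h, with 107 and 105 CPM, compared with 861 and 659 CPM in uninjured cells (−2.88 ± 0.34, adjusted p = 0.00125), and had 107 and 102 CPM at 8 h. It was still lower at 7 and 14 d (−2.68 ± 0.37 and −2.53 ± 0.36). Notch2, another Notch receptor, had 929 and 970 CPM at 7 d and 1090 and 614 at 14 d, above 508 and 502 CPM in uninjured cells. Notch3, the receptor with the highest level in uninjured cells, had 1800 and 1630 CPM there, 270 and 116 at 0.5 h and 17.5 and 12.8 at 8 h. Notch targets did not move alike at 0.5 h. Hes1 had 366 and 82.4 CPM against 86 and 91 in uninjured cells. Hey1 had 155 and 34.9 CPM against 59.3 and 77.4, and Heyl 552 and 197 CPM against 597 and 608. Of 13 Notch pathway genes (receptors, targets, Rbpj and its Maml cofactors), 1 rose and 5 fell both at 8 h and at 60 h. Over all genes tested, 16.1% rose and 14% fell at 8 h and 15.5% rose and 12.8% fell at 60 h. Of the 13, 1 rose and 2 fell at 7 d (4.76% and 5.8% of all genes). At 14 d none rose and 2 fell (5.03% and 7.12%).

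Col3a1, the main fibrillar chain of soft connective tissue, had 763 and 564 CPM in uninjured cells, 854 and 393 at 0.5 h, 535 and 393 at 1 h, 268 and 597 at 2 h, 419 and 225 at 4 h, 132 and 142 at 8 h, 98.6 and 101 at 16 h, 273 and 483 at 32 h and 269 and 303 at 60 h. The 8 and 16 h libraries were the lowest of the time course. The fall was −2.31 ± 0.48 at 8 h (adjusted p = 0.00662) and −2.72 ± 0.49 at 16 h (adjusted p = 0.00343), kept in 2 of 4 fits without a library at 8 h and in 4 of 4 at 16 h. At 60 h the value was −1.22 ± 0.47 (adjusted p = 0.0658). Its exons overlap Gm47302 on the same strand. In regeneration Col3a1 had 1330 and 1080 CPM at 7 d, 1450 and 1010 at 14 d and 477 and 551 at 28 d, not past the threshold at 7 d (0.76 ± 0.45, adjusted p = 0.296).

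Type I collagen, the main fibril of scar and tendon, is made of the chains of Col1a1 and Col1a2, and Col1a2 showed the largest called rise of a collagen that had counts in uninjured cells, over all times of injury and regeneration. Col1a2 had 22.3 and 6.88 CPM in uninjured cells, 42.6 and 21.9 at 0.5 h, 57.3 and 15.6 at 1 h, 31.8 and 30 at 2 h, 82.4 and 36.6 at 4 h, 45.5 and 30.6 at 8 h, 26.8 and 12.6 at 16 h, 25.6 and 58.5 at 32 h and 174 and 180 at 60 h. In the 8 injury groups only the 60 h libraries differed past the threshold, by 3.59 ± 0.76 (adjusted p = 0.0047). This call was lost without one of the 4 libraries (adjusted p up to 0.0521), and the uninjured libraries themselves differed more than 3-fold. In regeneration Col1a2 had 961 and 845 CPM at 7 d, 381 and 288 at 14 d and 70.9 and 46.2 at 28 d. The rise over uninjured cells was 5.86 ± 0.80 at 7 d (adjusted p = 0.000346) and 4.36 ± 0.74 at 14 d (adjusted p = 0.00215), each kept in 4 of 4 fits without a library. At 28 d Col1a2 was lower than at 7 d by 3.81 ± 0.39 on the log2 scale (adjusted p = 0.028), a call that no fit without a library kept.

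Col1a1 rose less. At 7 d it had 135 and 194 CPM, where uninjured cells had 28.7 and 18.2 CPM, a rise of 2.71 ± 0.71 (adjusted p = 0.0215) held in 1 of 4 fits without a library. At 60 h it had 36 and 36 CPM (0.61 ± 0.67, adjusted p = 0.513). Per kilobase, Col1a2 was 5.36 to 5.55 times Col1a1 at 60 h, 4.83 to 7.88 times at 7 d and 2.98 to 4.33 times at 14 d, against 0.419 to 0.864 in uninjured cells and 0.439 to 1.07 from 0.5 to 32 h. With the length of all annotated exons the ratio was 2.55 to 2.64 at 60 h, 2.3 to 3.75 at 7 d and 0.199 to 0.411 in uninjured cells. Type I collagen is also the main product of fibroblasts, whose markers were read in the same libraries. The 12 markers of fibroblasts and fibro-adipogenic progenitors summed to 527 and 589 CPM at 7 d, 199 and 177 CPM at 60 h and 538 and 603 CPM in uninjured cells, and Pdgfra, a defining marker of these cells, had no count at 7 d, at 14 d or in uninjured cells and 0.893 and 0.553 CPM at 60 h. Of the 12, 1 rose and 1 fell at 7 d. The sum at 7 d holds genes that moved apart: Gpc3, which rose, had 237 and 273 CPM at 7 d, where uninjured cells had 0.276 and 0.511 CPM (9.16 ± 0.95, adjusted p = 2.79e-05), and Gsn, the most abundant of the list in uninjured cells, had 232 and 253 CPM at 7 d, where uninjured cells had 403 and 459 CPM (−0.93 ± 0.47, adjusted p = 0.217). Gpc3 was also higher at 14 d, with 22 and 5.51 CPM. The part of such cells in the rise of type I collagen was not tested. Tenocyte markers, 7 genes, summed to 18.4 and 9.57 CPM at 7 d and 12.1 and 14.4 CPM in uninjured cells. The remaining fibrillar collagens were low, and of them Col27a1 fell at 16 h, with 1.43 and 2.47 CPM against 8.73 and 6.23 CPM (−1.92 ± 0.59, adjusted p = 0.0339), a call that no fit without a library kept.

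Of the main type IV chains, Col4a1 rose at 8 h, and both chains fell at 60 h. Col4a1 (chr8:11198423-11312826, minus strand) had 289 and 203 CPM in uninjured cells, 291 and 402 at 0.5 h, 294 and 318 at 1 h, 295 and 326 at 2 h, 303 and 465 at 4 h, 638 and 664 at 8 h, 198 and 209 at 16 h, 133 and 158 at 32 h and 36.6 and 44.5 at 60 h. Its 8 h libraries were the highest of the younger libraries and its 60 h libraries the lowest. The rise at 8 h was 1.38 ± 0.32 (adjusted p = 0.0102), kept in 2 of 4 fits without a library, and the fall at 60 h was −2.61 ± 0.34 (adjusted p = 0.000319), kept in 4 of 4. Col4a2 (chr8:11312805-11449287, plus strand) had 212 and 131 CPM in uninjured cells, 73.7 and 110 at 0.5 h, 88.3 and 89.1 at 1 h, 95.4 and 88.1 at 2 h, 88.1 and 160 at 4 h, 214 and 203 at 8 h, 71.1 and 90.4 at 16 h, 55.6 and 61.8 at 32 h and 24.3 and 30.3 at 60 h. At 8 h its value was 0.25 ± 0.36 (adjusted p = 0.61). It was lower at 32 h (−1.55 ± 0.37, adjusted p = 0.0128, kept in 1 of 4) and at 60 h (−2.66 ± 0.39, adjusted p = 0.000562, kept in 4 of 4).

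Although Col4a1 and Col4a2 start 21 bases apart, their ratio was not constant. Exons of the pair overlap each other on opposite strands, and those of Col4a2 also overlap Gm15419 on the other strand. The strand of counting is not given. Per kilobase Col4a1 was 3.57 to 3.85 times Col4a2 at 0.5 h, 2.91 to 3.18 times at 8 h and 1.43 to 1.47 times at 60 h, against 1.33 to 1.51 times in uninjured cells. It was 2.43 to 3.1 times at 14 d and 2.46 to 4.91 times at 28 d. In the type VI pair, Col6a1 was 3.12 to 3.63 times Col6a2 at 0.5 h, 1.12 to 1.23 times at 16 h, 0.775 to 1.06 times at 60 h, 4.98 to 5.73 times at 14 d and 5.5 to 5.82 times at 28 d, against 0.972 to 1.07 times in uninjured cells. With the length of all annotated exons, the type VI ratio in uninjured cells was 1.92 to 2.12. Ribosomal RNA took 28.3% to 49.7% of counts in the 60 h and uninjured libraries. Its share was 9.23% and 4.53% at 0.5 h, 4.88% and 8.34% at 16 h, 6.47% and 20.9% at 14 d and 14.2% and 8.56% at 28 d. The part of this share in the ratios was not tested.

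During regeneration Col4a1 had 279 and 346 CPM at 7 d, 445 and 328 at 14 d and 150 and 141 at 28 d and Col4a2 143 and 154 CPM at 7 d, 140 and 132 at 14 d and 29.8 and 56 at 28 d. Neither differed from uninjured cells past the threshold at 7 or 14 d, and at 28 d Col4a2 was lower by −1.99 ± 0.38 (adjusted p = 0.00669, kept in 2 of 4 fits without a library).

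**Figure D4:**
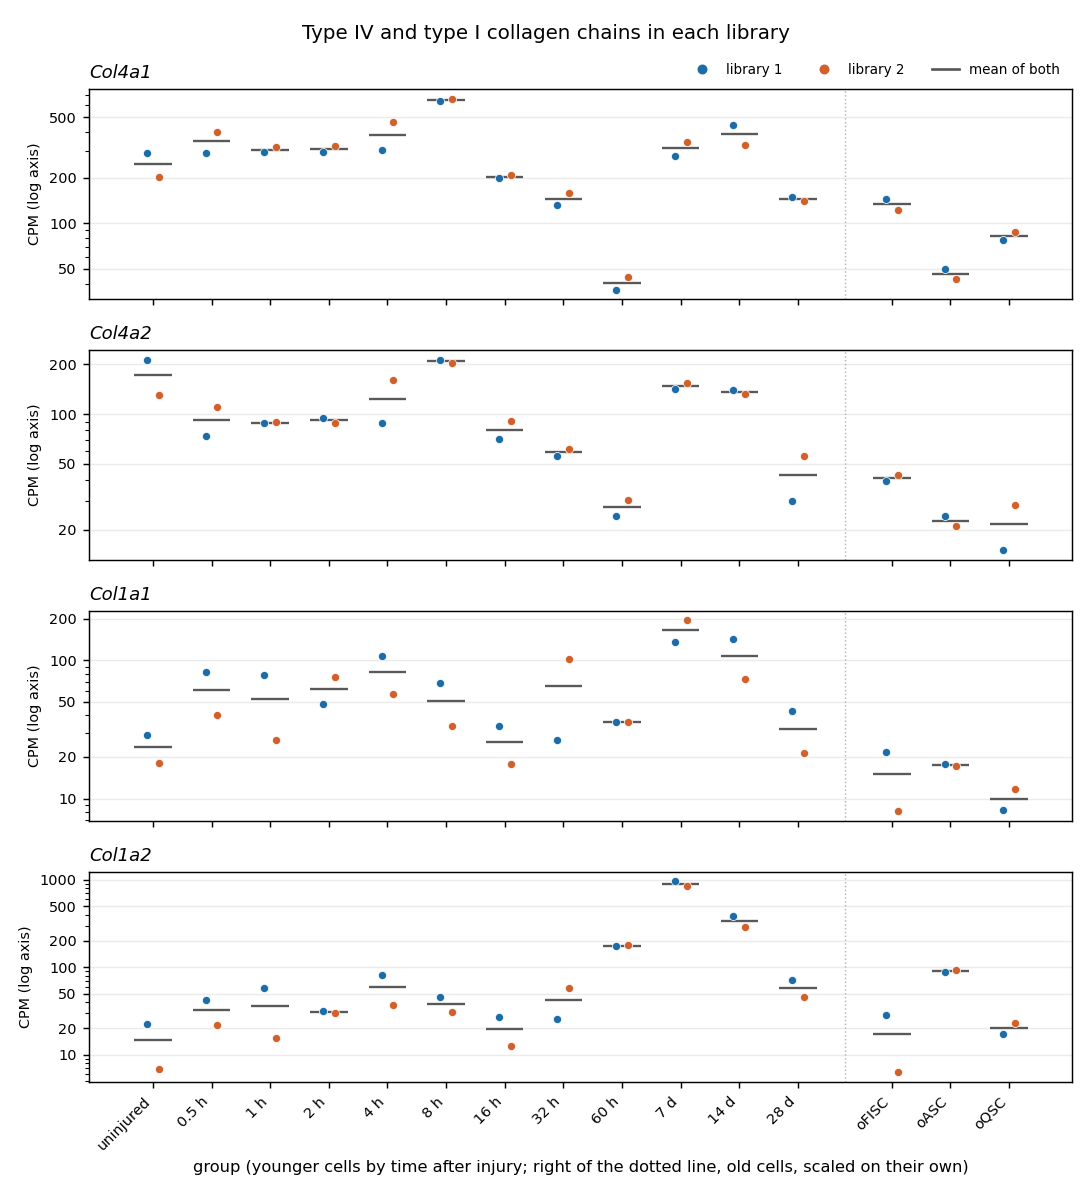
Level of Col4a1, Col4a2, Col1a1 and Col1a2 (CPM, log axis) in each library, by group. Points are libraries and bars their mean. Col4a1 reached 638 and 664 CPM at 8 h but had 36.6 and 44.5 CPM at 60 h, and Col1a2 reached 961 and 845 CPM at 7 d.

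The multiplexins Col15a1 and Col18a1, proteoglycans of the basement membrane zone, fell by 8 h. Col15a1 had 167 and 110 CPM in uninjured cells, 25.3 and 14.1 at 0.5 h, 27 and 20.9 at 1 h, 11.7 and 29.7 at 2 h, 37.9 and 6.77 at 4 h, 1.5 and 1.77 at 8 h, 0.159 and 0.13 at 16 h, 0.986 and 11.5 at 32 h and 1.06 and 5.11 at 60 h. Every injured library was below both uninjured ones, and the 16 h libraries held 10 counts in all. No fall passed the test from 0.5 to 4 h. The fall was −6.43 ± 1.22 at 8 h (adjusted p = 0.00473) and −9.86 ± 1.45 at 16 h (adjusted p = 0.00139). It was −4.51 ± 1.11 at 32 h (adjusted p = 0.0142) and −5.50 ± 1.16 at 60 h (adjusted p = 0.00465). It held in 4 of 4 fits without a library at 8 and 60 h and in 2 of 4 at 32 h, where 1 library had 0.986 and the other 11.5 CPM. In regeneration Col15a1 had 74 and 78.9 CPM at 7 d, 107 and 38.3 at 14 d and 8.68 and 10.1 at 28 d, lower than uninjured cells past the threshold at 28 d only (−3.87 ± 1.01, adjusted p = 0.0334), which no fit without a library kept. Exons of Col15a1 overlap Gm12426 on the other strand.

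Col18a1, which carries the endostatin fragment, had 53 and 44.3 CPM in uninjured cells, 49.4 and 42.9 at 0.5 h, 41.2 and 31.3 at 1 h, 23.6 and 28.9 at 2 h, 39.1 and 17.1 at 4 h, 12.7 and 13.1 at 8 h, 13.6 and 11 at 16 h, 24.4 and 31.1 at 32 h and 26.7 and 35 at 60 h. It fell by 1.95 ± 0.38 at 8 h (adjusted p = 0.005) and by 1.97 ± 0.38 at 16 h (adjusted p = 0.00448) on the log2 scale, both kept in 4 of 4 fits, and at 60 h the value was −0.67 ± 0.36 (adjusted p = 0.181). In regeneration it had 39.5 and 44.9 CPM at 7 d, 48.7 and 88.5 at 14 d and 38.4 and 22 at 28 d. Minor type IV chains fell from a low level. Col4a5 had no count at 16 h and 9.74 and 6.18 CPM in uninjured cells, at least 185-fold lower taking 3 counts for the group as the floor. Col4a4 had 5 counts in the 60 h libraries and 291 in uninjured libraries (−6.31 ± 1.24, adjusted p = 0.00313). Col4a3 had none and 8 counts in the same groups, at least 3.62-fold lower. Col4a6 fell at 16 h (−5.25 ± 1.40, adjusted p = 0.0197, kept in 2 of 4).

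Among the other types, the type VI chains Col6a1 and Col6a2 fell and Col6a3 rose. Col6a1 had 146 and 144 CPM in uninjured cells, 291 and 167 at 0.5 h, 256 and 172 at 1 h, 105 and 247 at 2 h, 227 and 99.6 at 4 h, 48.7 and 44.6 at 8 h, 30 and 13.2 at 16 h, 61 and 125 at 32 h and 20.8 and 32.7 at 60 h. Col6a2 had 144 and 129 CPM in uninjured cells, 89.7 and 44.2 at 0.5 h, 74 and 43.1 at 1 h, 31.4 and 82.8 at 2 h, 76.9 and 26.9 at 4 h, 20.2 and 18.5 at 8 h, 23.5 and 11.4 at 16 h, 38.6 and 57.7 at 32 h and 25.9 and 29.6 at 60 h. In all libraries of 8, 16, 32 and 60 h both lay below every uninjured library. Col6a1 fell by 1.66 ± 0.56 at 8 h (adjusted p = 0.0413), 2.73 ± 0.58 at 16 h (adjusted p = 0.00726) and 2.45 ± 0.58 at 60 h (adjusted p = 0.00815), kept in 0, 3 and 3 of 4 fits without a library. Col6a2 fell by 2.85 ± 0.60 at 8 h (adjusted p = 0.00689), 2.96 ± 0.60 at 16 h (adjusted p = 0.00607) and 2.31 ± 0.59 at 60 h (adjusted p = 0.012), kept in 2, 4 and 1 of 4. Col6a3, the largest chain of type VI, had 9 counts in the uninjured libraries and rose by 3.98 ± 1.09 at 4 h (adjusted p = 0.0372) and 4.83 ± 1.12 at 60 h (adjusted p = 0.00762), kept in 0 and 3 of 4 fits without a library, whose values ran from 3.22 to 9.72 at 4 h and 4.05 to 10.56 at 60 h. It stayed low, with a mean of 7 ± 0.576 CPM at 60 h against 0.209 ± 0.296 CPM in uninjured cells (SD, n = 2 each). In regeneration Col6a1 had 198 and 188 CPM at 7 d, 334 and 282 at 14 d and 103 and 141 at 28 d and Col6a2 74.8 and 80.4 CPM at 7 d, 64.5 and 47.4 at 14 d and 17.1 and 24.7 at 28 d, of which Col6a2 at 28 d was past the threshold (−2.70 ± 0.58, adjusted p = 0.0121, kept in 2 of 4).

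Col19a1, a collagen at muscle basement membranes that associates with fibrils, had 80.3 and 109 CPM in uninjured cells, 137 and 50.9 at 0.5 h, 94.5 and 38.1 at 1 h, 40.2 and 115 at 2 h, 119 and 29.5 at 4 h, 23.7 and 26.3 at 8 h, 19.2 and 22.7 at 16 h, 30.7 and 86.2 at 32 h and 18.1 and 15.9 at 60 h. At 0.5, 1, 2 and 4 h the library with more Pax7 also had more Col19a1. The same held for Col3a1, Col5a1, Col5a3, Col6a1, Col6a2, Col15a1, Col18a1 and Col26a1. Col4a2 went the other way at all of these times, and Col4a1 and Col5a2 did so at 0.5, 1 and 4 h. Its fall at 60 h was −2.48 ± 0.74 (adjusted p = 0.0259), which no fit without a library kept, and in regeneration it had 25.5 and 25.3 CPM at 7 d, 35.5 and 58.8 at 14 d and 38.9 and 81.9 at 28 d. Col26a1 had 34.6 and 11.7 CPM in uninjured cells, 21.1 and 7.96 at 0.5 h, 15 and 6.61 at 1 h, 4.01 and 18.4 at 2 h, 17.8 and 2.08 at 4 h, 1.82 and 1.35 at 8 h, 7.35 and 11.4 at 16 h, 7.75 and 32.4 at 32 h and 7.61 and 11.3 at 60 h. It fell at 8 h (−3.90 ± 1.10, adjusted p = 0.0207, kept in 1 of 4), where both libraries were below every other younger library, and had 46.8 and 43.7 CPM at 7 d, 30.8 and 111 at 14 d and 15.6 and 11.1 at 28 d.

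Col8a1, a short network-forming chain, rose at 6 of the 8 injury times and at 7 and 14 d. With a library left out, none of 4 fits kept the calls at 2 and 4 h, 1 kept that at 16 h and 2 kept those at 0.5 h, 32 h and 14 d. It had 30.6 ± 2.58 CPM at 60 h and 40 ± 3.72 CPM at 7 d, against 3.55 ± 2.29 CPM in uninjured cells (SD, n = 2 each), with log2 fold changes of 3.08 ± 0.60 (adjusted p = 0.00283, kept in 4 of 4) and 3.38 ± 0.65 (adjusted p = 0.00333, kept in 3 of 4). Col13a1, a transmembrane collagen of the neuromuscular junction, had no count in uninjured cells and 362 counts at 60 h, at least 83.2-fold higher (kept in 3 of 4). Col22a1, a collagen of the junction between muscle and tendon, was called higher at 6 times on 34 to 43 counts per group against none, with bounds of 5.94-fold to 9.72-fold; 3 of 4 fits without a library kept the call at 8 h, and at most 1 of 4 at any other time. Col16a1 fell at 16 and 60 h (−2.44 ± 0.41 and −2.22 ± 0.41, adjusted p = 0.00248 and 0.00208, each kept in 4 of 4), as did Col20a1 at 60 h (−4.90 ± 0.97, adjusted p = 0.00324, kept in 4 of 4). Exons of Col20a1 overlap BX649560.1 on the same strand, and those of Col22a1 overlap Gm16308 on the other strand. Col7a1, the anchoring fibril chain, fell by 1.92 ± 0.57 at 8 h (adjusted p = 0.0248), 3.21 ± 0.60 at 16 h (adjusted p = 0.00403), 2.64 ± 0.58 at 32 h (adjusted p = 0.00876) and 2.46 ± 0.58 at 60 h (adjusted p = 0.00819) on the log2 scale, kept in 1, 4, 2 and 2 of 4 fits without a library.

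At 7, 14 and 28 d, fewer collagens differed from uninjured cells. Of 42 tested, 4 rose and none fell at 7 d (4.76% of all genes rose and 5.8% fell, 10.6% in all), 4 rose and none fell at 14 d (5.03% and 7.12%, 12.1% in all), and 1 rose and 4 fell at 28 d (1.85% and 3.79%, 5.64% in all). At 7 d these were Col1a2, Col1a1, Col5a2 and Col8a1, at 14 d Col1a2, Col5a2, Col5a3 and Col8a1, and at 28 d Col5a2 rose while Col4a2, Col6a2, Col5a1 and Col15a1 fell. In either direction the shares were near or below the background at 7 and 14 d and above it at 28 d. The count was 2 without uninjured library 1 at both 7 and 14 d, and at 28 d it was 0 without uninjured library 1 or 28 d library 1, 2 without uninjured library 2 and 3 without 28 d library 2. These libraries and the uninjured ones are in different tables, so the table and the time cannot be told apart. Within the regeneration table none of 32 collagens differed between 14 and 7 d by edgeR's test (0.0472% of all genes rose and 0.0059% fell, 0.0531% in all; 3 collagens at an unadjusted p under 0.05, 2 by DESeq2), and Col1a2 alone between 28 and 7 d (0.0826% of all genes rose and 0.212% fell, 0.295% in all), where 17 had an unadjusted p under 0.05. Among markers of other cells, those of pericytes and smooth muscle, 10 genes, summed to 489 and 874 CPM at 14 d, where uninjured cells had 189 and 120 CPM, with 1 of 10 called higher, and 6 of 10 myofibre genes rose at 14 d. Their part in these results was not tested.

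Marker genes of other cells also moved in the time course. The fibroblast and fibro-adipogenic markers summed to 1960 and 1150 CPM at 0.5 h, 1680 and 1130 at 1 h, 1010 and 1980 at 2 h and 1820 and 999 at 4 h, with 6, 6, 5 and 7 of 12 higher and none lower. Endothelial markers summed to 153 and 105, 212 and 183, 101 and 87.6, and 123 and 281 CPM at these times, with 3, 7, 1 and 7 of 10 higher and none lower. At 8 h 8 of 12 fibroblast and fibro-adipogenic markers rose and 1 fell, with sums of 721 and 594 CPM, compared with 538 and 603 CPM in uninjured cells, where Pdgfra, Smoc2 and Clec3b had no count. At 16 h the sums were 915 and 605 CPM and at 32 h 696 and 1230 CPM, again with 8 of 12 higher and 1 lower. At 60 h 2 of the 12 rose and 3 fell. Endothelial markers summed to 209 and 147 CPM at 8 h against 37.3 and 73.8 CPM, with 6 higher. Tenocyte markers summed to 166 and 82.4 CPM at 8 h, with 4 of 7 higher. Endothelial markers summed at 60 h to 17.3 and 17.6 CPM, with 1 higher and 2 lower. Immune markers summed to 448 CPM in the second 32 h library against 76.7 CPM in the first, and to 8.45 and 7.49 CPM in uninjured cells. Of 8 Schwann and glial markers none was called at 8 h and 2 fell at 60 h. The part of such cells in the collagen results was not tested.

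In old cells, injury was followed by higher levels of some fibrillar chains and lower levels of some basement membrane chains. Of 44 collagens tested in oASC against oQSC, 10 rose and 10 fell (19% of all genes rose and 21.3% fell, 40.3% in all, so the shares were near the background), 5 of 11 fibrillar higher and 1 lower, 1 of 8 basement membrane higher and 5 lower. The median log2 fold change was 0.81 for fibrillar, −1.19 for basement membrane and −0.62 for other collagens, where all genes tested had a median of −0.33. The count was 12 without oQSC library 1 and 13 without oASC library 1. In the same comparison 9 of 12 fibroblast and fibro-adipogenic markers fell, to sums of 194 and 200 CPM in oASC against 1300 and 1980 CPM in oQSC libraries, and none of the 12 lacked a count in either group. Of 10 satellite cell markers 2 rose and 8 fell.

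All 3 type V chains rose in oASC. Col5a1 had 24.2 and 16.5 CPM in oASC against 8.47 and 13 CPM in oQSC libraries, a rise of 0.92 ± 0.29 (adjusted p = 0.0348, kept in 2 of 4 fits without a library). Col5a2 had 262 and 237 CPM in oASC against 68.1 and 75 CPM in oQSC libraries (1.80 ± 0.19, adjusted p = 0.000167, kept in 4 of 4). Col5a3 had 57.6 and 77 CPM in oASC against 9.68 and 14.8 CPM in oQSC libraries (2.46 ± 0.27, adjusted p = 0.000172, kept in 4 of 4). For each chain both oASC libraries were above both oQSC libraries. Calcr went the other way, with 4.97 and 4.07 CPM in oASC against 271 and 269 CPM in oQSC libraries (−5.90 ± 0.31, adjusted p = 7.42e-06).

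Further members changed with injury in old cells. Col3a1 had 390 and 391 CPM in oASC against 99.3 and 136 CPM in oQSC libraries (1.73 ± 0.34, adjusted p = 0.00371), and Col1a2 had 87.8 and 93.2 CPM in oASC against 17.1 and 22.8 CPM in oQSC libraries (2.18 ± 0.56, adjusted p = 0.0143, kept in 2 of 4). Col18a1 had 33.2 and 35.7 CPM in oASC against 7.5 and 10.6 CPM in oQSC libraries (1.93 ± 0.27, adjusted p = 0.00067). These 3 were higher in both oASC libraries. Col4a1 had 50.1 and 43 CPM in oASC against 77.2 and 87.5 CPM in oQSC libraries (−0.82 ± 0.20, adjusted p = 0.0111, kept in 1 of 4), where the median over all genes was −0.33. Col4a2 had 24.2 and 21 CPM in oASC against 15 and 28.2 CPM in oQSC libraries (0.06 ± 0.29, adjusted p = 0.903), and its groups overlapped. Col15a1 had 0.347 and 0.422 CPM in oASC against 2.12 and 4.09 CPM in oQSC libraries (−3.00 ± 0.59, adjusted p = 0.00384, kept in 4 of 4). The smallest adjusted p was that of Col19a1, with 4.81 and 4.85 CPM in oASC against 36.7 and 39.1 CPM in oQSC libraries (−2.97 ± 0.21, adjusted p = 2.03e-05, kept in 4 of 4). Col6a1 had 47.4 and 46 CPM in oASC against 61.3 and 82.8 CPM in oQSC libraries, Col6a2 had 23.1 and 19.1 CPM in oASC against 12.5 and 20.1 CPM in oQSC libraries and Col26a1 had 4.24 and 3.88 CPM in oASC against 1.15 and 2.07 CPM in oQSC libraries, of which only Col26a1 was called (1.33 ± 0.39, adjusted p = 0.0258, kept in 1 of 4).

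In oFISC against oQSC, 14 of 44 collagens rose and none fell (19.3% of all genes rose and 22.6% fell, 41.9% in all). The median over all genes tested was itself 0.52, and 0.81 with RLE size factors, so small rises here are not changes relative to other genes. Col5a3 had 43.7 and 42.9 CPM in oFISC (1.82 ± 0.26, adjusted p = 0.000995) and Col5a1 39.8 and 30.7 CPM (1.71 ± 0.30, adjusted p = 0.00269), both above their oQSC values and kept in 4 of 4 fits without a library. Col8a1 rose by 1.83 ± 0.26 (adjusted p = 0.000908) and Col18a1 by 1.57 ± 0.27 (adjusted p = 0.0025). Col5a2 had 101 and 91.1 CPM (0.42 ± 0.19, adjusted p = 0.103). The remaining members of the panel had, in oFISC, 238 and 117 CPM for Col3a1, 28.2 and 6.27 CPM for Col1a2, 145 and 123 CPM for Col4a1, 39.6 and 42.7 CPM for Col4a2 and 12.4 and 4.42 CPM for Col15a1. Col18a1 had 32.1 and 21.6 CPM, Col6a1 94.7 and 47 CPM, Col6a2 25.2 and 17.6 CPM, Col19a1 31.4 and 27.8 CPM and Col26a1 5.96 and 4.01 CPM. The count of collagens called was 8 without oFISC library 1, in which satellite repeats took 61.3% of counts, 9 without oQSC library 1, and 22 with RLE size factors.

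Without injury, old cells were lower than younger cells in Col5a1 and Col5a3, in Col4a1 and Col4a2 and in 7 further collagens, and higher in Col8a1 and Col4a3. In oQSC against uninjured cells, 2 of 44 collagens rose and 11 fell (12.3% of all genes rose and 9.31% fell, 21.6% in all), with a median of −0.51 against 0.49 over all genes tested. On the scale of all 30 libraries Col5a1 had 12.5 ± 3.97 CPM in oQSC, against 183 ± 48.6 CPM in uninjured cells (−3.87 ± 0.40, adjusted p = 1.79e-06), and Col5a3 had 14.3 ± 4.51 CPM, against 98 ± 1.75 CPM (−2.78 ± 0.47, adjusted p = 0.000241; SD, n = 2 each). Col5a2 had 83.4 ± 7.36 CPM, against 53.6 ± 6.7 CPM (0.64 ± 0.30, adjusted p = 0.138). Col4a2, Col18a1, Col6a2, Col15a1 and Col3a1 were lower as well, by 2.21 to 5.25 on the log2 scale, and with Col5a1 and Col5a3 each was called in 4 of 4 fits without a library. Col4a1 was lower by 1.36 on the log2 scale, kept in 2 of 4. Col8a1 was higher (2.24 ± 0.56, adjusted p = 0.00574, kept in 3 of 4), and so was the minor chain Col4a3, with 3.08 ± 0.147 CPM against 0.231 ± 0.0673 CPM (3.68 ± 0.96, adjusted p = 0.00875, kept in 2 of 4). Col4a6 had 9.16 ± 0.0592 CPM against 3.06 ± 2.12 CPM (1.57 ± 1.22, adjusted p = 0.343). Age cannot be told apart from the table here, and the count was 7 without uninjured library 1. The oQSC libraries also had 1300 ± 330 CPM of Myod1 against 46.1 ± 6.64 CPM, and 7 of 12 fibroblast and fibro-adipogenic markers higher and none lower. Their Calcr level was 314 ± 4.59 CPM against 163 ± 23.5 CPM, and of 10 satellite cell markers 1 was higher and 3 were lower. The part of these differences in the collagen result was not tested.

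The response of 8 collagens to injury differed between old and younger cells. In the contrast of oASC over oQSC with 60 h over uninjured, 8 of 44 collagens responded more upward in old cells and none more downward (3.29% of all genes more upward and 3.99% more downward, 7.28% in all), namely Col5a1, Col5a3, Col3a1, Col4a1, Col4a2, Col18a1, Col6a2 and Col17a1. For Col5a3 the response was 2.46 ± 0.27 in old and −1.89 ± 0.50 in younger cells, and for Col5a1 0.92 ± 0.29 in old and −2.72 ± 0.36 in younger cells. On the scale of all 30 libraries Col5a1 had 23.8 ± 6.23 CPM in oASC and 28 ± 4.83 CPM at 60 h, against 12.5 ± 3.97 CPM in oQSC and 183 ± 48.6 CPM in uninjured cells (SD, n = 2 each). Col5a2 did not differ in its response past the threshold (0.87 ± 0.43, adjusted p = 0.249). The count of collagens called was 5 without uninjured library 1, 4 and 5 without 60 h library 1 and 2, 3 without oQSC library 1 and 5 without oASC library 1. The old and the younger cells are in different tables, so table and age cannot be told apart.

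**Figure D5:**
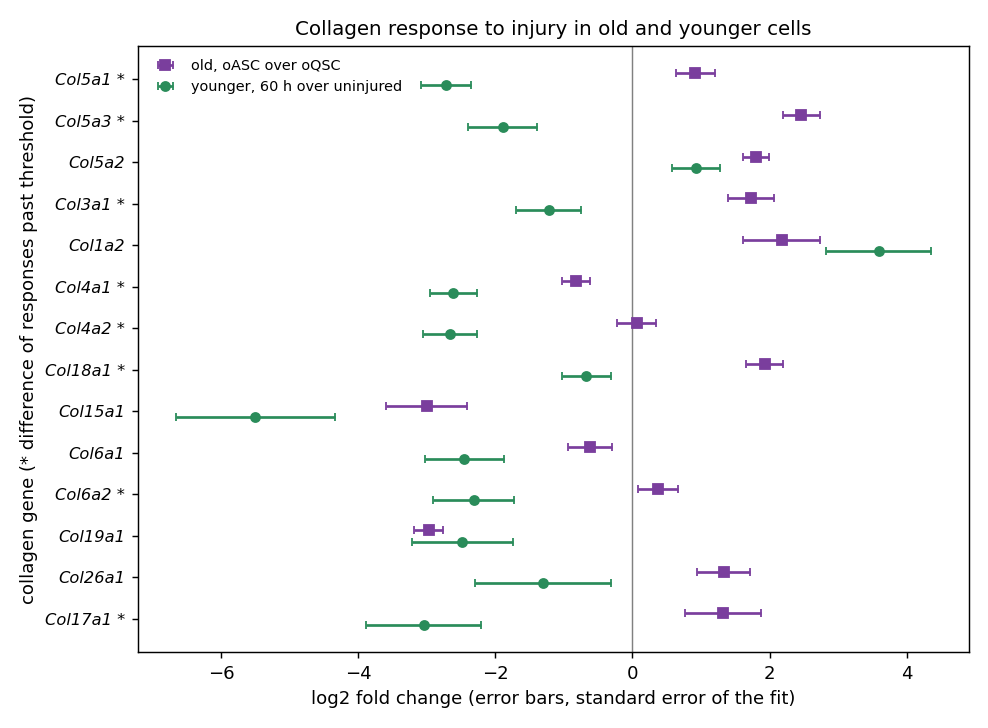
Log2 fold change after injury for 14 collagens in old cells (squares, oASC over oQSC) and in younger cells (circles, 60 h over uninjured), with standard errors of the fits. A star marks genes whose responses differed at an adjusted p under 0.05. For Col5a1 and Col5a3 the old response is above 0 and the younger one below 0.

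The genes of enzymes and chaperones that make and mature collagen went both ways after injury. Of 23 genes for folding and modification of collagen in the endoplasmic reticulum, 7 rose and 3 fell at 8 h and 5 rose and 3 fell at 60 h, with median log2 fold changes of 0.86 and 0.56. Over all genes tested, 16.1% rose and 14% fell at 8 h and 15.5% rose and 12.8% fell at 60 h, so the share that fell was near the background. Serpinh1, the collagen chaperone Hsp47, rose by 1.43 ± 0.37 at 8 h (adjusted p = 0.0144) and 2.31 ± 0.38 at 60 h (adjusted p = 0.00104). P4ha1, a catalytic subunit of prolyl 4-hydroxylase, rose by 2.91 ± 0.76 at 8 h (adjusted p = 0.0156), and P3h3, a member of the prolyl 3-hydroxylase family, fell by 3.03 ± 0.72 (adjusted p = 0.0107). At 7 d 2 of the 23 rose and 1 fell, among them Plod2, a lysyl hydroxylase, with a rise of 2.08 ± 0.42 (adjusted p = 0.00438).

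Of 18 genes tested for procollagen processing and crosslinking, 5 rose and 7 fell at 8 h, more than the 16.1% and 14% of all genes, and 2 rose and 1 fell at 60 h, fewer than the 15.5% and 12.8% of all genes. Bmp1, the procollagen C-proteinase, had 25.3 to 27.2 CPM at 60 h against 190 to 310 CPM in uninjured cells (−3.26 ± 0.37, adjusted p = 0.000165). Adamts14, a procollagen N-proteinase, had 157 to 169 CPM at 60 h against 8.65 to 29.1 CPM (3.10 ± 0.50, adjusted p = 0.000969) and rose in oASC as well (6.31 ± 0.46, adjusted p = 2.43e-05). The opposite moves of these proteinases came in the same libraries. Of 13 collagen receptors, 3 rose and 3 fell at 8 h and 2 rose and 4 fell at 60 h, against the same shares of all genes. Itgb1, the common chain of the collagen-binding integrins, rose at 8 h (2.59 ± 0.51, adjusted p = 0.00523) and Ddr1, a receptor tyrosine kinase for collagen, fell (−1.48 ± 0.33, adjusted p = 0.00888).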

How the data were processed

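Per the labels' protocols, RNA of fixed cells was extracted with a kit for fixed tissue, amplified by SMART-Seq v4, cut into libraries with Tn5 and sequenced as paired reads. The submitters' processing notes name Trimmomatic 0.36, HISAT2 2.1.0, SAMtools 1.3, StringTie 1.3.3 and mm10; for the counting program, its strand setting and its annotation, nothing is given in the sources used here. The authors deposited whole-number gene counts as 3 tables: time course, regeneration and old cells.

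The counts were tested with edgeR 4.0.16 (quasi-likelihood F test, TMM, R 4.3.3, limma 3.58.1) over all genes that passed filterByExpr (minimum count 10, minimum total 15), with Benjamini-Hochberg adjustment over all genes tested and a call at an adjusted p under 0.05. The fits held the 18 libraries of the time course (22479 genes tested), these with the 6 of regeneration (23244), regeneration alone (16954), the 6 old libraries (30099), or all 30 joined by gene identifier (28823). The standard error is the log2 fold change over the square root of F. The test code was also tested on simulated data. Total counts were 9.18 to 57.4 M per library. Levels of younger cells are on the TMM scale of all 30 libraries, those of old cells on that of their own 6, so they are compared across only where the joint scale is named; the order of collagens over all libraries averages both scales. Lengths for CPM per kb are those of the transcript with the longest coding sequence (GENCODE M21, GRCm38), and so are gene coordinates. A different length would scale a ratio of chains by the same factor in every group. A fold against a group without counts is a bound, taking 3 counts for the whole group as the floor; bounds cover counting error only.

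Collagens and gene lists were chosen with earlier results of these data known. Given in every library are Col5a1, Col5a2, Col5a3 and the 4 most abundant collagens per kb of each class with a value in every library; called members follow by smallest adjusted p, up to 4 per class. Col1a1, Col4a5, Col4a6, Col6a3, Col7a1, Col17a1, Col27a1, Notch1, Notch2, Notch3, Hes1, Hey1 and Heyl, where outside that rule, and the marker genes Pax7, Myod1, Pdgfra, Gpc3 and Gsn were named after their values were seen. DESeq2 1.42.0, RLE size factors, no filter, a replicate block, fewer groups, fewer libraries and no ribosomal RNA or satellite repeat models (chosen after the data were seen) were the alternatives.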

Additional observations from a re-analysis of the deposited data

Results flagged for a closer look

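For 8 collagens the response to injury differed between old cells (oASC over oQSC) and younger cells (60 h over uninjured) by the edgeR test of the difference itself. The difference in log2 fold change was 3.64 ± 0.53 for Col5a1 (adjusted p = 0.000378), 4.34 ± 0.66 for Col5a3 (adjusted p = 0.000517), 2.71 ± 0.53 for Col4a2 (adjusted p = 0.00349) and 2.59 ± 0.57 for Col18a1 (adjusted p = 0.00769). It was 2.95 ± 0.65 for Col3a1 (adjusted p = 0.00773), 1.78 ± 0.43 for Col4a1 (adjusted p = 0.0135), 4.35 ± 1.18 for Col17a1 (adjusted p = 0.0283) and 2.68 ± 0.73 for Col6a2 (adjusted p = 0.0291). Of 8 fits that each left out 1 library, Col5a1, Col5a3 and Col4a2 were called in 8, Col3a1 in 7, Col18a1 in 6, Col4a1 and Col17a1 in 2 and Col6a2 in 1. Old and younger libraries are in separate tables, and the oQSC libraries held 1300 ± 330 CPM of Myod1, against 46.1 ± 6.64 CPM in uninjured cells (SD, n = 2 each, on the scale of all 30 libraries), so age, table and the state of the cells cannot be told apart.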

How the results depend on the processing

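Counts of collagens called that moved by over 1.5 times are given by setting. DESeq2 called 8 at 0.5 h, 10 at 1 h, 9 at 2 h, 10 at 4 h, 15 at 32 h, 27 for any change to 60 h, 10 at 7 d, 10 at 14 d, 8 at 28 d, 2 for 14 against 7 d and 11 for 28 against 7 d. Without the filter on low counts the counts were 4 at 1 h, 6 at 4 h, 26 for any change, 8 at 7 d, 7 at 14 d, 1 for 14 against 7 d and 8 for 28 against 7 d. RLE size factors gave 1 at 2 h and 22 for oFISC, and leaving out ribosomal RNA and satellite repeat models gave 1 at 2 h. With only the groups compared in the fit there were 0 at 0.5 h, 1 at 1 h, 0 at 2 h, 0 at 4 h and 17 for the difference in injury response. Without the 8 libraries of 0.5 to 4 h there were 16 at 32 h and 28 for any change.

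With each library left out in turn, counts ran from 0 to 3 at 0.5 h, 0 to 1 at 1 h, 0 to 1 at 2 h, 0 to 3 at 4 h, 4 to 10 at 8 h, 9 to 10 at 16 h, 2 to 6 at 32 h, 12 to 15 at 60 h, 12 to 20 for any change, 2 to 4 at 7 d, 2 to 6 at 14 d and 0 to 3 at 28 d. They ran from 0 to 2 for 14 against 7 d, 0 to 0 for 28 against 7 d, 8 to 16 for oFISC, 12 to 17 for oASC, 7 to 13 for oQSC against uninjured cells and 3 to 8 for the difference in injury response. A lone library left in a group is assumed to vary like the other groups.

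Replicate numbers share no stated origin. Between the 2 groups of each comparison, deviations of same-numbered libraries correlated by −0.0558 to 0.0387, so no pairing was seen there. Pairing among the times from 0.5 to 60 h was not examined. With the replicate block the count was 1 at 1 h, 1 at 2 h and 1 at 4 h.

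Type V values that turned sign were all uncalled. With a library left out, Col5a3 ran from −0.16 to 1.12 at 0.5 h, −0.33 to 0.41 at 1 h, −0.85 to 0.44 at 2 h and −0.25 to 0.09 at 16 h, Col5a1 from −0.33 to 0.22 at 14 d (0.02 and 0.14 without 14 d library 1 and 2) and Col5a2 from −0.29 to 0.07 for 14 against 7 d. Col5a3 at 1 h was −0.03 with RLE size factors and −0.03 with DESeq2. For these changes the cause was not tested. With 2 libraries a group, small changes could not be detected.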
